A study of Mus musculus with 24 samples.

Results

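Genes of glycolysis and targets of hypoxia-inducible factor 1 (HIF-1) were followed in SIM-A9, a mouse microglial cell line, as a set of 32 listed gene symbols. The set held 22 genes of glucose uptake, glycolysis and lactate export and 10 genes of the HIF system. Members were matched by symbol, and the list was drawn up with earlier results of these data known. A low-count filter kept 13116 of the 54838 identifiers in the count table, and 31 of the 32 members were among them. The exception was Adm, which encodes the secreted peptide adrenomedullin and had at most 3 reads in any library.

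Each of the 8 groups held 3 libraries of polyA-selected RNA from SIM-A9 cells kept in serum-free DMEM/F12 for 2 h, then treated for 2 h by adding 30 uL of a 10-fold concentrate to 270 uL of medium. The groups were untreated control cells and cells given lipopolysaccharide (LPS, a bacterial outer-membrane component that was the positive control for inflammation), single-walled carbon nanotubes (SWCNT) named (GT)6 SWCNT after a DNA sequence, carboxylated SWCNT (COOH SWCNT), the calcium dye Fura-2, the probes labelled DiBASC2 and Di-2-ANEPEQ, or AAV. AAV is adeno-associated virus, a common gene-delivery vector. Spellings of these names vary within the labels: the treatment field has Di-BASC0, Di-BASC1 and Di-BASC2 for the DiBASC2 libraries and Di-2-ANEQEQ for the Di-2-ANEPEQ libraries. Column names of the count table have DiSBAC2 for the DiBASC2 libraries. Final concentrations were not given in the sources used here. SIM-A9 is a single immortalised line, and the labels do not say that the replicates came from separate cultures, so p-values measure the spread between these libraries, which may be technical. Sample names in the labels end in numbers that run in blocks of 3 by group. The labels do not say what the numbers stand for, and anything that follows their order cannot be told apart from the treatment. All treatments were compared with the same 3 control libraries.

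Libraries held 17364272 to 29259221 counted reads, and mitochondrial genes took 1.42% to 1.79% of them. All 12 microglia and macrophage markers had a mean of at least 1 CPM, the count scaled to a library of fixed size, with a summed level of 2380 to 2638 CPM in a library. Among 4 markers each for other cell types, none of the astrocyte markers, only Mbp of the oligodendrocyte markers, only Syn1 of the neuron markers and only Kdr of the endothelial markers reached a mean of 1 CPM. Microglia and macrophage markers were uneven in control: Cd68 stood at 817 and Csf1r at 507 CPM, but P2ry12 at 2.35, Tmem119 at 4.13 and Aif1 at 4.45 CPM. These low levels lay near or below those of Mbp at 4.13 and Syn1 at 3.82 CPM. Kdr, a receptor for the VEGF proteins, made up nearly all of the endothelial sum, while Cdh5, Pecam1 and Cldn5 lay below 1 CPM. That sum was 90.8 to 142 CPM over the libraries, with means of 131 in control, 95 with LPS, 105 with (GT)6 SWCNT and 130 with COOH SWCNT.

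Glycolysis turns glucose into pyruvate: glucose transporters bring the sugar in, hexokinases and phosphofructokinase commit it, and the lower enzymes harvest ATP before lactate dehydrogenase and monocarboxylate transporters dispose of the product. HIF-1 pairs the oxygen-regulated subunit encoded by Hif1a with a constant partner. Prolyl hydroxylases mark the subunit for destruction when oxygen is present. Most glycolytic genes are HIF-1 targets, and macrophages and microglia exposed to bacterial products are known to take up more glucose and to raise Hif1a mRNA.

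HIF-1 binds a short DNA core, searched here as the letters ACGTG or GCGTG on either strand. RefSeq start-site windows (GRCm38.p6) were matched by symbol for 30 of the 32 members, all but Slc2a3 and Ndrg1. In the 250 bases before a RefSeq start, 28 of those 30 members (93.3%) held at least 1 such core. The same letters stood before 41.5% of all 27025 genes with a window and before 61.7% of the 9388 genes with a window that were also tested here. An NF-kB consensus stood before 4 of the 30 members (13.3%), against 10.5% of the tested genes. A palindromic CACGTG counts on both strands. The windows of 4 members are shown because they stand before members that were called and 1 that was not. Hif1a, Hk2 and Pfkfb3 passed the test in at least 1 treatment and Ldha in none. Capitals mark the cores. The Pfkfb3 run stops 11 bases short of the RefSeq start, where an annotated exon begins. Positions are chr12:73907617-73907866 on the plus strand, chr6:82774455-82774704 and chr2:11502102-11502340 on the minus strand and chr7:46845554-46845803 on the plus strand. Only the Hk2 window lies outside the GENCODE M21 span of its gene. The Hif1a, Pfkfb3 and Ldha windows stand before RefSeq starts inside the spans of their genes.
Hif1a: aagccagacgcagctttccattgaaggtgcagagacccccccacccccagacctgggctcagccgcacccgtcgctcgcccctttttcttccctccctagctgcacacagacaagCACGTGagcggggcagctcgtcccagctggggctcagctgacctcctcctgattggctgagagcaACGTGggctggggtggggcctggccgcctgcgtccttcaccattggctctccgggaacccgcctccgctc
Hk2: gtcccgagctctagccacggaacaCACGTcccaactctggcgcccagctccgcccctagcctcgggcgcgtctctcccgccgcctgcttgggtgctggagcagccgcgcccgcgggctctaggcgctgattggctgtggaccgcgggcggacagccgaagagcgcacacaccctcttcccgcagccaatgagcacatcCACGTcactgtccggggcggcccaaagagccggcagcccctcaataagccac
Pfkfb3: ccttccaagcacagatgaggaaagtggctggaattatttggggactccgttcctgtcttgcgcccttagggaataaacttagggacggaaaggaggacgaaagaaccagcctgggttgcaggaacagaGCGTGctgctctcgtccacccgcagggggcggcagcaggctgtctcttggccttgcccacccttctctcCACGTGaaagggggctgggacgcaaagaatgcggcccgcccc
Ldha: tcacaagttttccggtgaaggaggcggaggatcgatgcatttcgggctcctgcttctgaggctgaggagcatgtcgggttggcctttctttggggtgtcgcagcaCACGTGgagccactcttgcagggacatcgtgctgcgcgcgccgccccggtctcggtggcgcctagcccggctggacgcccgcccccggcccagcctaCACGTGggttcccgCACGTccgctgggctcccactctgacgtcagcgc
Cores were counted 3 times before Hif1a, 2 times before Hk2, 3 times before Pfkfb3 and 5 times before Ldha. Pfkfb3 and Ldha each have a second RefSeq window, which held 1 core, and the window with more cores is the one shown. These letter matches describe the windows and do not show binding.

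In untreated cells 7 of the 8 lower glycolytic enzymes stood above every transporter and regulator of the set, and the exception was Aldoc at 33 CPM per kb. Levels between genes are given as CPM per kilobase of exon. Ldha, which makes lactate from pyruvate, stood at 930.3, followed by Pgk1 at 889.7, Aldoa at 822, Gapdh at 822, Pkm at 714, Eno1 at 639 and Tpi1 at 535 CPM per kb. Control libraries overlapped between neighbours in 10 of the 30 pairs of this order, among them Ldha with Pgk1 and Aldoa with Gapdh, so Ldha was not above Pgk1 beyond the spread. The other pairs were Slc16a1 with Slc16a3, Hif1a with Pfkl, Pfkl with Aldoc, Aldoc with Hk2, P4ha1 with Pfkp, Pfkp with Egln3, Egln3 with Pdk1 and Slc2a3 with Ndrg1. At the bottom were the collagen prolyl hydroxylase subunit P4ha2 at 2.73, Pfkfb3 at 3.58 and Pfkfb4 at 5.48 CPM per kb. Slc2a1 stood at 58.3, Hif1a at 35.5 and Vegfa at 12.1 CPM per kb. All 32 members together took 2.41% ± 0.00515 (SD, n = 3) of the counts in control, 2.34% ± 0.0748 with LPS, 2.41% ± 0.0433 with (GT)6 SWCNT and 2.52% ± 0.0378 with COOH SWCNT. Their share was 2.44% ± 0.0414 with Fura-2, 2.46% ± 0.0633 with DiBASC2, 2.53% ± 0.0258 with Di-2-ANEPEQ and 2.47% ± 0.0491 with AAV. The plot of control levels orders the tested members by level and colours them by role.

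**Figure D1:**
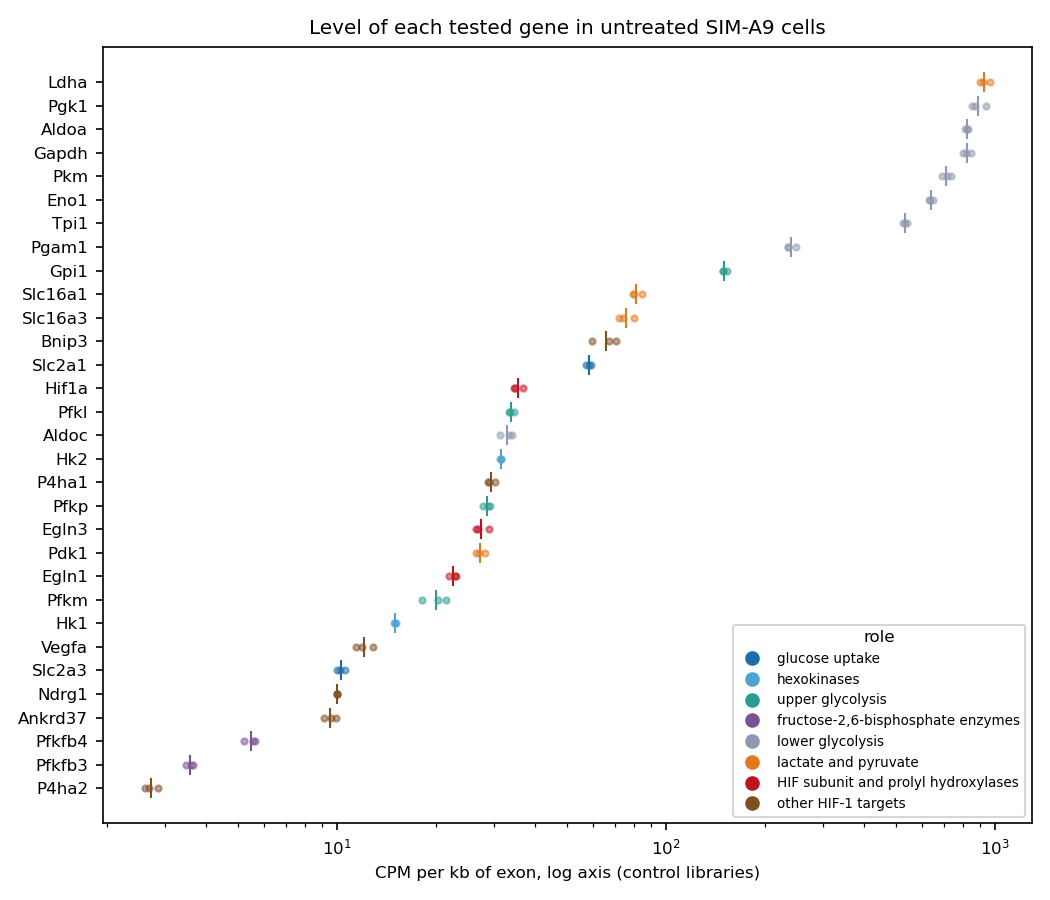
Level of the 31 tested genes in the 3 control libraries, as CPM per kb of exon on a log axis; points are libraries, vertical ticks are means and colours are roles. Levels run from 2.73 for P4ha2 to 930.3 for Ldha, with 6 lower glycolytic enzymes among the 7 highest genes.

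Against control, LPS raised 7 of the 31 tested members (22.6%) and lowered 6 (19.4%), where 13.8% and 14.5% of all tested genes were called in those directions at an adjusted p below 0.05. Slc2a1, Pfkl, Pfkfb3, Slc16a3, Hif1a, Vegfa and P4ha2 rose with LPS, and Hk1, Pfkfb4, Aldoc, Pdk1, Egln1 and Ankrd37 fell. With upper-quartile scaling the LPS split was 6 higher and 8 lower. For (GT)6 SWCNT the counts were 5 higher (16.1%: Slc2a1, Pfkp, Pfkfb3, Hif1a and Ndrg1) and 3 lower (9.68%: Egln1, Egln3 and Ankrd37), against 9.9% and 10.5% of all genes. That split became 5 and 5 with upper-quartile scaling and 8 and 3 with a trend in gene length and GC content removed, an alternative chosen after the data were seen. The (GT)6 SWCNT share lower lay near the background share. COOH SWCNT raised 12 members (38.7%), against 9.39% of all genes, and lowered none, against 10.6%. They were Slc2a1, Slc2a3, Hk2, Pfkl, Pfkp, Pfkfb3, Aldoa, Gapdh, Slc16a3, Hif1a, P4ha2 and Ndrg1, and the count was 8 without COOH SWCNT replicate 2 and 9 with the length and GC trend removed. Where edgeR lowered none with COOH SWCNT, 1 was lower at an unadjusted p below 0.05 and 1 was called by DESeq2. The members' median log2 fold change was -0.0012 with LPS, 0.0094 with (GT)6 SWCNT and 0.10 with COOH SWCNT, beside -0.0084, -0.017 and -0.0016 over all genes. Leaving out each library in turn kept 8 of the 13 LPS calls, 6 of the 8 (GT)6 SWCNT calls and 8 of the 12 COOH SWCNT calls in every one of 6 refits. In bulk RNA, fewer cells expressing a gene and less of its RNA per cell cannot be told apart.

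**Figure D2:**
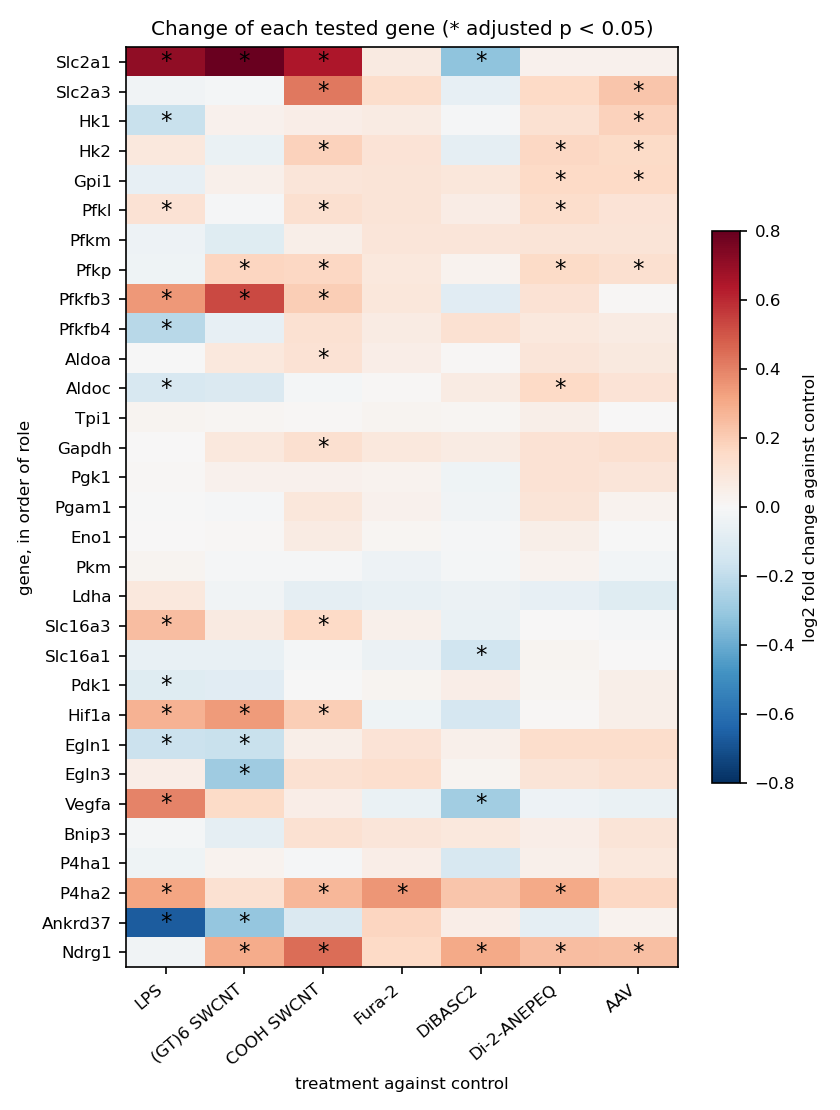
Log2 fold change against control of the 31 tested genes (rows, in order of role) under 7 treatments (columns); colour gives the fold change and an asterisk an edgeR adjusted p below 0.05. Slc2a1 has the deepest colours on the positive side, 0.71 with LPS, 0.79 with (GT)6 SWCNT and 0.65 with COOH SWCNT, while Ankrd37 with LPS is at -0.67.

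The main glucose transporter gene showed the largest rise among the members. Slc2a1 (ENSMUSG00000028645.11, chr4:119108711-119137983, plus strand; GENCODE M21) encodes GLUT1. Its level was 208, 201 and 205 CPM in the 3 control libraries and 325, 336 and 344 CPM with LPS. With (GT)6 SWCNT it was 359.9, 356 and 344 CPM and with COOH SWCNT 309, 329 and 322 CPM. Every library of these 3 treatments lay above every control library. The log2 fold change was 0.71 ± 0.039 SE, edgeR adjusted p = 9.52e-18 with LPS. With (GT)6 SWCNT it was 0.79 ± 0.039 SE, edgeR adjusted p = 1.31e-18, and with COOH SWCNT 0.65 ± 0.039 SE, edgeR adjusted p = 2.04e-15. DiBASC2 libraries went the other way, with 159, 174 and 159 CPM, all below control (log2 fold change -0.32 ± 0.039 SE, edgeR adjusted p = 5.73e-07). Fura-2 libraries had 216, 223 and 208 CPM, Di-2-ANEPEQ libraries 217, 202 and 208 CPM and AAV libraries 209, 209 and 211 CPM, which overlapped the control range for Di-2-ANEPEQ and Fura-2 and began just above it for AAV. None of these 3 passed the test. The 4 Slc2a1 calls, with LPS, both nanotubes and DiBASC2, stood in every refit that left out 1 library. The antisense gene Gm12868 overlaps Slc2a1 but reached a mean of 0.0210 CPM.

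The second transporter followed a different pattern. Slc2a3 encodes GLUT3, the high-affinity transporter best known from neurons; like the other members named beyond the rule for named members it was singled out after its values were seen. It measured 77, 72.5 and 74.4 CPM in control and 99, 106 and 95.2 CPM with COOH SWCNT, without overlap (log2 fold change 0.42 ± 0.057 SE, edgeR adjusted p = 6.68e-07). LPS libraries had 70.4, 73.3 and 75.8 CPM and (GT)6 SWCNT libraries 75.4, 73.7 and 72.2 CPM, both overlapping the control range. DiBASC2 libraries had 61.9, 79.5 and 72.3 CPM, also overlapping it. Fura-2 libraries had 78.7, 87.6 and 81.1 CPM and Di-2-ANEPEQ libraries 81, 82.3 and 86.8 CPM, all above control but not called. AAV libraries had 85, 88.8 and 86.7 CPM, all above control (log2 fold change 0.22 ± 0.057 SE, edgeR adjusted p = 0.0221). That call was kept in 2 of 6 refits, being lost without AAV replicate 2, AAV replicate 3, control replicate 2 or control replicate 3, with an adjusted p of up to 0.0847. Of the 2 transporters' level per kb, Slc2a1 made up 85% ± 0.181 (SD, n = 3) in control, 90.4% ± 0.0787 with LPS, 90.8% ± 0.0616 with (GT)6 SWCNT and 86.9% ± 0.535 with COOH SWCNT.

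**Figure D3:**
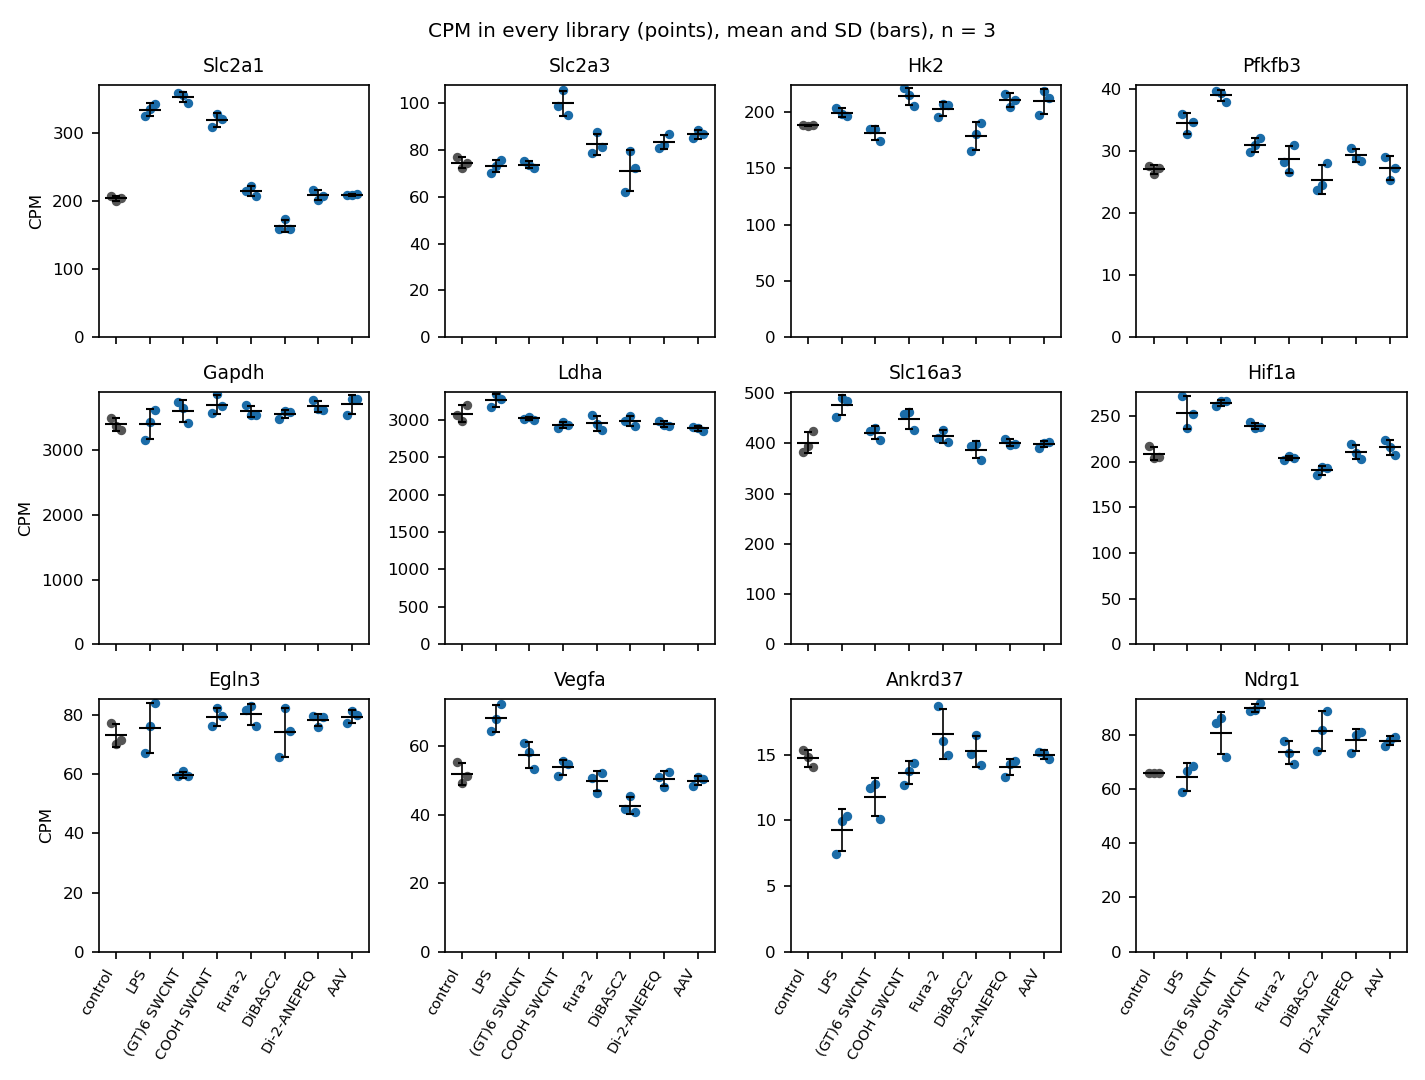
CPM in each of the 24 libraries for 12 members (panels), with groups along the horizontal axis, points for libraries and bars for the mean and SD (n = 3); every vertical axis starts at 0. Slc2a1, Pfkfb3 and Hif1a are raised with LPS and both nanotube groups, Slc2a3 and Hk2 with COOH SWCNT but not with (GT)6 SWCNT, and Egln3 is lowest with (GT)6 SWCNT at 59.9 ± 1.03 CPM.

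Hexokinases trap glucose in the cell by phosphorylation. Hk2 (ENSMUSG00000000628.10, chr6:82725025-82774454, minus strand), the inducible form, measured 189, 187 and 188 CPM in control and 221, 215 and 206 CPM with COOH SWCNT, all above control (log2 fold change 0.19 ± 0.044 SE, edgeR adjusted p = 0.0018). The LPS libraries held 204, 198 and 196 CPM, also all above control, but the change did not pass the test (log2 fold change 0.085 ± 0.044 SE, edgeR adjusted p = 0.161). The (GT)6 SWCNT libraries held 185, 185 and 174 CPM, all below control, again without a call (log2 fold change -0.051 ± 0.044 SE, edgeR adjusted p = 0.481). In the remaining groups Hk2 stood at 196, 207 and 206 CPM with Fura-2, 166, 181 and 190.5 with DiBASC2, 216, 204 and 211 with Di-2-ANEPEQ and 197, 218 and 213 with AAV. It was called higher with Di-2-ANEPEQ (log2 fold change 0.16 ± 0.044 SE, edgeR adjusted p = 0.0283) and AAV (log2 fold change 0.16 ± 0.043 SE, edgeR adjusted p = 0.0321), calls kept in 0 and 1 of 6 refits. Hk1, the constitutive form, fell with LPS from 128, 129 and 127 to 113, 113 and 114 CPM (log2 fold change -0.18 ± 0.048 SE, edgeR adjusted p = 0.00426). With AAV it was called at a log2 fold change of 0.18, kept in 4 of 6 refits. Gpi1, the isomerase after hexokinase, held 964, 964 and 989.5 CPM in control, 1084, 1078 and 1092 with Di-2-ANEPEQ and 1031, 1114 and 1112 with AAV. Both groups lay above control and were called. The log2 fold changes were 0.16 ± 0.039 SE, edgeR adjusted p = 0.0189, and 0.16 ± 0.039 SE, edgeR adjusted p = 0.0159. These calls were kept in 1 and 4 of 6 refits. COOH SWCNT (1040, 1072 and 1010 CPM), Fura-2 (1042, 1054.5 and 1039) and DiBASC2 (1029, 1021 and 1053) also lay above control but were not called. LPS and (GT)6 SWCNT libraries overlapped control. Hk3, which is outside the set, was the most abundant of the 3 hexokinases: it took 57.1% ± 0.684 of the 3 genes' level per kb in control, Hk2 29.1% ± 0.482 and Hk1 13.8% ± 0.235.

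At the phosphofructokinase step the largest changes with LPS and (GT)6 SWCNT were those of a regulator, Pfkfb3. Pfkfb3 (ENSMUSG00000026773.19, chr2:11471433-11554077, minus strand) makes fructose 2,6-bisphosphate, the allosteric activator of phosphofructokinase. Control libraries held 27.7, 26.3 and 27.3 CPM, LPS libraries 36, 32.8 and 34.7 CPM, (GT)6 SWCNT libraries 39.7, 39.4 and 38 CPM and COOH SWCNT libraries 29.8, 31 and 32.1 CPM. All 9 treated libraries lay above the control range. The log2 fold change was 0.35 ± 0.067 SE, edgeR adjusted p = 7.88e-05 with LPS. With (GT)6 SWCNT it was 0.53 ± 0.066 SE, edgeR adjusted p = 5.55e-08, and with COOH SWCNT 0.20 ± 0.067 SE, edgeR adjusted p = 0.0346. The COOH SWCNT call was lost without control replicate 2, control replicate 3, COOH SWCNT replicate 2 or COOH SWCNT replicate 3, with an adjusted p of up to 0.122, and when the length and GC trend was removed. Fura-2 libraries held 28.3, 26.7 and 31.1 CPM, DiBASC2 23.7, 24.5 and 28.1, Di-2-ANEPEQ 30.5, 29 and 28.5 and AAV 29.2, 25.3 and 27.2, with no call in any of them.

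The sister gene Pfkfb4 went down with LPS, from 27.1, 25.5 and 27.4 to 23.3, 22.4 and 23 CPM (log2 fold change -0.22 ± 0.069 SE, edgeR adjusted p = 0.0136). That call was lost without control replicate 1, control replicate 3 or LPS replicate 2, with an adjusted p of up to 0.0686. Per kb, Pfkfb3 made up 39.6% ± 0.454 (SD, n = 3) of the pair in control, 49.3% ± 0.726 with LPS, 49.7% ± 1.92 with (GT)6 SWCNT and 40.8% ± 2.28 with COOH SWCNT. Among the phosphofructokinase subunits, the platelet-type gene Pfkp rose with (GT)6 SWCNT, from 386, 391 and 372 to 439.9, 444 and 410.4 CPM (log2 fold change 0.17 ± 0.037 SE, edgeR adjusted p = 5.91e-04). COOH SWCNT gave 438, 423 and 426 CPM (log2 fold change 0.16 ± 0.037 SE, edgeR adjusted p = 0.00128), again without overlap with control. Pfkp overlaps Pitrm1 on the opposite strand (mean 244 CPM), and since the counting was not stated to use strand, their reads may mix. The liver-type gene Pfkl was called at a log2 fold change of 0.11 with LPS, lost without LPS replicate 3 (adjusted p = 0.0776), with upper-quartile scaling and without the low-count filter, and at 0.13 with COOH SWCNT, lost with the length and GC trend removed. Pfkm, the muscle type, was called in no treatment, and Senp1 overlaps it at a higher level (mean 133 CPM).

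Most of the lower enzymes were not called. Of the 8 members from aldolase to pyruvate kinase, LPS changed only Aldoc, at a log2 fold change of -0.13, with overlapping libraries and kept in 2 of 6 refits, and (GT)6 SWCNT changed none. With COOH SWCNT Aldoa and Gapdh were called. Gapdh (ENSMUSG00000057666.18, chr6:125161715-125166467, minus strand), glyceraldehyde-3-phosphate dehydrogenase and a common reference gene, held 3503, 3375 and 3311 CPM in control and 3567, 3867 and 3679.8 with COOH SWCNT (log2 fold change 0.13 ± 0.043 SE, edgeR adjusted p = 0.0364). That call was lost without control replicate 2, control replicate 3 or COOH SWCNT replicate 2, with an adjusted p of up to 0.202, and with the length and GC trend removed. The LPS libraries held 3152, 3435 and 3615 CPM, spanning the control range, and the (GT)6 SWCNT libraries 3747, 3651 and 3422. Fura-2 gave 3699.6, 3548 and 3548, DiBASC2 3484, 3597 and 3582, Di-2-ANEPEQ 3780.0, 3631 and 3615 and AAV 3535, 3790.3 and 3793 CPM, with no call. Aldoa with COOH SWCNT stood at a log2 fold change of 0.11 with an edgeR adjusted p = 0.0323, and was lost without control replicate 2, control replicate 3, COOH SWCNT replicate 1 or COOH SWCNT replicate 2 (adjusted p up to 0.225) and with the same trend removed. Tpi1, Pgk1, Pgam1, Eno1 and Pkm were called in none of the 7 treatments, with log2 fold changes from -0.041 for Pkm with Fura-2 to 0.12 for Pgk1 with Di-2-ANEPEQ. Eno1, Pgam1 and Pgk1 have near-identical copies, which took at most 2.58 CPM each.

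The lactate exporter gene Slc16a3 was called with LPS and COOH SWCNT, while Ldha was called in no treatment. Ldha (ENSMUSG00000063229.15, chr7:46841475-46855627, plus strand) held 3058, 2981 and 3199 CPM in control, 3164, 3339 and 3272 with LPS, 3013, 3039 and 2996 with (GT)6 SWCNT and 2884, 2963 and 2931 with COOH SWCNT. LPS libraries overlapped the control range and did not pass the test (log2 fold change 0.082 ± 0.035 SE, edgeR adjusted p = 0.0798), although DESeq2 size factors gave an adjusted p = 0.0402 and the alternatives ranged from 0.00532 to 0.414. Fura-2 held 3055, 2943 and 2857 CPM, DiBASC2 2986, 3047 and 2908, Di-2-ANEPEQ 2981, 2926 and 2910.5 and AAV 2903, 2889 and 2850.3, again with no call. Slc16a3 encodes MCT4, the exporter of highly glycolytic cells. It rose with LPS from 384, 396 and 426 to 453, 491 and 485 CPM, without overlap (log2 fold change 0.25 ± 0.042 SE, edgeR adjusted p = 1.05e-05). With COOH SWCNT it held 458, 464 and 427 CPM, also above all controls (log2 fold change 0.16 ± 0.041 SE, edgeR adjusted p = 0.00418), a call lost with the length and GC trend removed. Slc16a1, which encodes the second lactate carrier MCT1, fell with DiBASC2 from 374, 352 and 354 to 314, 332 and 323 CPM (log2 fold change -0.16 ± 0.037 SE, edgeR adjusted p = 0.00747). Without control replicate 1 the adjusted p of this call was 0.111. Pdk1, the kinase that keeps pyruvate out of the mitochondrion, was called at a log2 fold change of -0.10 with LPS and kept in 1 of 6 refits.

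Hif1a mRNA rose in the same 3 treatments as Slc2a1. Hif1a (ENSMUSG00000021109.13, chr12:73901375-73947530, plus strand) measured 218, 204 and 206 CPM in control, 273, 237 and 253 with LPS, 261, 267 and 266 with (GT)6 SWCNT and 243, 237 and 238 with COOH SWCNT, with no overlap between control and any of the 3. The log2 fold change was 0.28 ± 0.041 SE, edgeR adjusted p = 1.00e-06 with LPS. With (GT)6 SWCNT it was 0.34 ± 0.041 SE, edgeR adjusted p = 3.50e-08, and with COOH SWCNT 0.20 ± 0.041 SE, edgeR adjusted p = 5.62e-04, and all 3 calls held in every refit. Fura-2 libraries held 202, 207 and 204 CPM, Di-2-ANEPEQ 219, 210.1 and 203 and AAV 224, 217 and 208, overlapping control, with no call. DiBASC2 libraries held 185, 194 and 193 CPM, all below control, and did not pass the test (log2 fold change -0.13 ± 0.042 SE, edgeR adjusted p = 0.0533), though DESeq2 size factors gave an adjusted p = 0.0492 and the alternatives ranged from 0.00559 to 0.145. These are mRNA levels, and HIF-1 protein, which oxygen controls, was not measured.

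Egln3 and Egln1, the 2 HIF prolyl hydroxylase genes in the set, both fell with (GT)6 SWCNT. Egln3 (ENSMUSG00000035105.5, chr12:54178981-54203860, minus strand), itself a classical HIF target, held 77.5, 70.4 and 71.7 CPM in control and 59.3, 61.1 and 59.3 with (GT)6 SWCNT, without overlap (log2 fold change -0.29 ± 0.064 SE, edgeR adjusted p = 8.97e-04). LPS libraries were scattered at 67.1, 76.3 and 84 CPM, and COOH SWCNT libraries held 76.4, 82.3 and 79.6 CPM. Fura-2 had 81.7, 83.1 and 76.4, DiBASC2 65.8, 82.5 and 74.6, Di-2-ANEPEQ 79.8, 76 and 79.5 and AAV 77.3, 81.4 and 80.0 CPM, with no call in any group but (GT)6 SWCNT. Egln1, the main oxygen sensor, fell with LPS from 82.3, 82.6 and 78.9 to 70.6, 72.7 and 73.4 CPM (log2 fold change -0.17 ± 0.049 SE, edgeR adjusted p = 0.007), with an adjusted p of 0.052 without control replicate 2. It also fell with (GT)6 SWCNT, to 70.7, 77.7 and 66.4 CPM (log2 fold change -0.18 ± 0.049 SE, edgeR adjusted p = 0.00635), a call lost without control replicate 1, control replicate 2, (GT)6 SWCNT replicate 1 or (GT)6 SWCNT replicate 3, with an adjusted p of up to 0.102.

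The remaining HIF-1 targets did not move together. Vegfa (ENSMUSG00000023951.17, chr17:46016993-46032369, minus strand), the vascular growth factor, rose with LPS from 55.4, 49.2 and 51.3 to 64.3, 67.9 and 72.2 CPM, without overlap (log2 fold change 0.40 ± 0.057 SE, edgeR adjusted p = 7.04e-07). With DiBASC2 it fell to 41.7, 45.4 and 40.8 CPM (log2 fold change -0.28 ± 0.058 SE, edgeR adjusted p = 0.00207). Both changes held in every refit. The (GT)6 SWCNT libraries held 60.9, 58.2 and 53.4 CPM, overlapping control and not called (log2 fold change 0.15 ± 0.058 SE, edgeR adjusted p = 0.0558), although DESeq2 size factors gave an adjusted p = 0.0374 and the alternatives ranged from 0.0188 to 0.0737. COOH SWCNT gave 51.2, 55.5 and 54.6, Fura-2 50.7, 46.4 and 52.2, Di-2-ANEPEQ 50.9, 48.1 and 52.4 and AAV 48.5, 51.1 and 50.3 CPM, all overlapping the control range.

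Ankrd37 (ENSMUSG00000050914.16, chr8:45996902-46005707, minus strand), a hypoxia-induced ankyrin-repeat gene, fell with LPS, where Vegfa rose. It held 15.3, 14.8 and 14 CPM in control and 7.39, 9.96 and 10.3 with LPS, well apart (log2 fold change -0.67 ± 0.11 SE, edgeR adjusted p = 3.70e-06). (GT)6 SWCNT libraries held 12.4, 12.8 and 10.1 CPM, all below control (log2 fold change -0.31 ± 0.10 SE, edgeR adjusted p = 0.0234), a call lost without control replicate 1, control replicate 2 or (GT)6 SWCNT replicate 3, with an adjusted p of up to 0.169. COOH SWCNT had 12.7, 13.8 and 14.4, Fura-2 18.7, 16 and 15, DiBASC2 15.1, 16.5 and 14.2, Di-2-ANEPEQ 13.3, 14.3 and 14.5 and AAV 15.2, 15.1 and 14.6 CPM, with no call. Ufsp2 overlaps this gene on the opposite strand at 40.4 CPM in control and 38.9 CPM with LPS, so their reads may mix.

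Ndrg1, a stress-induced gene of the same target class, was called higher in 5 of the 7 treatments, all but LPS and Fura-2. Its level was 65.9, 66.1 and 65.9 CPM in control, 84.4, 86.2 and 71.9 with (GT)6 SWCNT, 88.9, 89.2 and 91.7 with COOH SWCNT and 74.1, 82 and 88.7 with DiBASC2, all above control. The log2 fold change was 0.30 ± 0.061 SE, edgeR adjusted p = 3.37e-04 with (GT)6 SWCNT. With COOH SWCNT it was 0.45 ± 0.061 SE, edgeR adjusted p = 6.81e-07, and with DiBASC2 0.31 ± 0.061 SE, edgeR adjusted p = 0.00124. LPS libraries held 58.8, 66.6 and 68.6 CPM, on both sides of the control range (log2 fold change -0.027 ± 0.063 SE, edgeR adjusted p = 0.804). Di-2-ANEPEQ libraries held 73.6, 79.9 and 81.3 CPM (log2 fold change 0.24 ± 0.061 SE, edgeR adjusted p = 0.0189) and AAV libraries 76.1, 78.2 and 79.5 CPM (log2 fold change 0.24 ± 0.061 SE, edgeR adjusted p = 0.0176), calls kept in 2 and 3 of 6 refits. Fura-2 libraries held 77.9, 73.4 and 69.4 CPM, also all above control but not called. The control libraries had the smallest spread of the 8 groups, an SD of 0.128 CPM.

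P4ha2 was the 1 member called with Fura-2 (3.23% of those tested), where 0.0381% of all genes were called higher and 0.213% lower. It held 16.3, 17.9 and 16.8 CPM in control and 21.9, 23.4 and 20.3 with Fura-2 (log2 fold change 0.35 ± 0.074 SE, edgeR adjusted p = 0.0233), a call lost without control replicate 1, control replicate 3, Fura-2 replicate 2 or Fura-2 replicate 3, with an adjusted p of up to 0.203. It also rose with LPS (log2 fold change 0.32 ± 0.075 SE, edgeR adjusted p = 0.00122) and COOH SWCNT (log2 fold change 0.27 ± 0.074 SE, edgeR adjusted p = 0.00829), the latter with an adjusted p of 0.0527 without COOH SWCNT replicate 2. P4ha1, the paralogous subunit, and Bnip3, a mitophagy receptor, were called against control in no treatment. In all, 9 of the 31 tested members were never called against control: Pfkm, Tpi1, Pgk1, Pgam1, Eno1, Pkm, Ldha, Bnip3 and P4ha1.

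With Fura-2, the probes and AAV the largest called change was a log2 fold change of 0.35, for P4ha2 with Fura-2. Slc2a1 reached 0.79 with (GT)6 SWCNT, but some calls with LPS were smaller, such as Pfkl at 0.11. DiBASC2 raised 1 member (3.23%: Ndrg1) and lowered 3 (9.68%: Slc2a1, Slc16a1 and Vegfa), against 1.82% and 3.64% of all genes. That split was 2 and 3 with upper-quartile scaling and 1 and 5 with the length and GC trend removed. Di-2-ANEPEQ raised 7 members (22.6%) and lowered none, against 0.686% and 2.39%. They were Hk2, Gpi1, Pfkl, Pfkp, Aldoc, P4ha2 and Ndrg1, with log2 fold changes from 0.14 to 0.30. AAV raised 6 members (19.4%) and lowered none, against 1.84% and 3.16%. They were Slc2a3, Hk1, Hk2, Gpi1, Pfkp and Ndrg1, with log2 fold changes from 0.13 to 0.24. Where edgeR lowered none, 0 were lower at an unadjusted p below 0.05 and 0 were called by DESeq2 for Di-2-ANEPEQ, and 1 was lower at an unadjusted p below 0.05 and 1 was called by DESeq2 for AAV. None of the Di-2-ANEPEQ or AAV calls stood in every refit. No member was called for Di-2-ANEPEQ without control replicate 1 or without Di-2-ANEPEQ replicate 2, and none for AAV without AAV replicate 2. At an edgeR unadjusted p below 0.05, 15 members were higher with COOH SWCNT, 15 with Di-2-ANEPEQ, 16 with AAV and 9 with Fura-2. The counts were 8 with LPS, 7 with (GT)6 SWCNT and 4 with DiBASC2. Adjusted p-values depend on all genes of a comparison, so numbers of calls do not compare directly between treatments. Fold changes leaned upward. Of 31 members, 28 lay above 0 with Di-2-ANEPEQ, 26 with AAV, 26 with Fura-2 and 24 with COOH SWCNT, with medians of 0.10, 0.086, 0.067 and 0.10 beside all-gene medians between -0.0016 and 0.0032. These 4 comparisons share their 3 control libraries. With the length and GC trend removed the member medians were 0.082 with Di-2-ANEPEQ, 0.10 with AAV, 0.056 with Fura-2 and 0.057 with COOH SWCNT. The all-gene medians in that setting were 0.0052, 0.0084, -0.0058 and -0.026. The part of the shared controls in this offset was not tested.

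The nanotube groups differed from each other in this set. Both are single-walled carbon nanotubes, 1 named for the DNA sequence (GT)6 and the other carboxylated, and no doses were given, so the comparison is of these preparations. Compared directly, 3 members were higher (9.68%) and 8 lower (25.8%) with (GT)6 SWCNT than with COOH SWCNT, against 11.9% and 9.48% of all genes. The share higher lay below the background share. Of these 11 calls, 8 held in every refit. The 3 higher members were Pfkfb3 (log2 fold change 0.34 ± 0.064 SE, edgeR adjusted p = 1.73e-04), Slc2a1 (log2 fold change 0.14 ± 0.038 SE, edgeR adjusted p = 0.0053) and Hif1a (log2 fold change 0.14 ± 0.041 SE, edgeR adjusted p = 0.00974). Each of these 3 also rose against control in both groups. Lower with (GT)6 SWCNT were Slc2a3 (log2 fold change -0.44 ± 0.057 SE, edgeR adjusted p = 4.70e-07) and Egln3 (log2 fold change -0.41 ± 0.063 SE, edgeR adjusted p = 9.66e-06). Hk2 was lower too (log2 fold change -0.24 ± 0.044 SE, edgeR adjusted p = 1.15e-04), as were Egln1 at a log2 fold change of -0.22 and Bnip3 at -0.19. Pfkl, Pfkm and Pfkfb4 were called at log2 fold changes of -0.13, -0.14 and -0.19, and each of these calls was lost in at least 1 refit and with the length and GC trend removed. The plot of differences between the nanotube groups shows all 31.

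**Figure D4:**
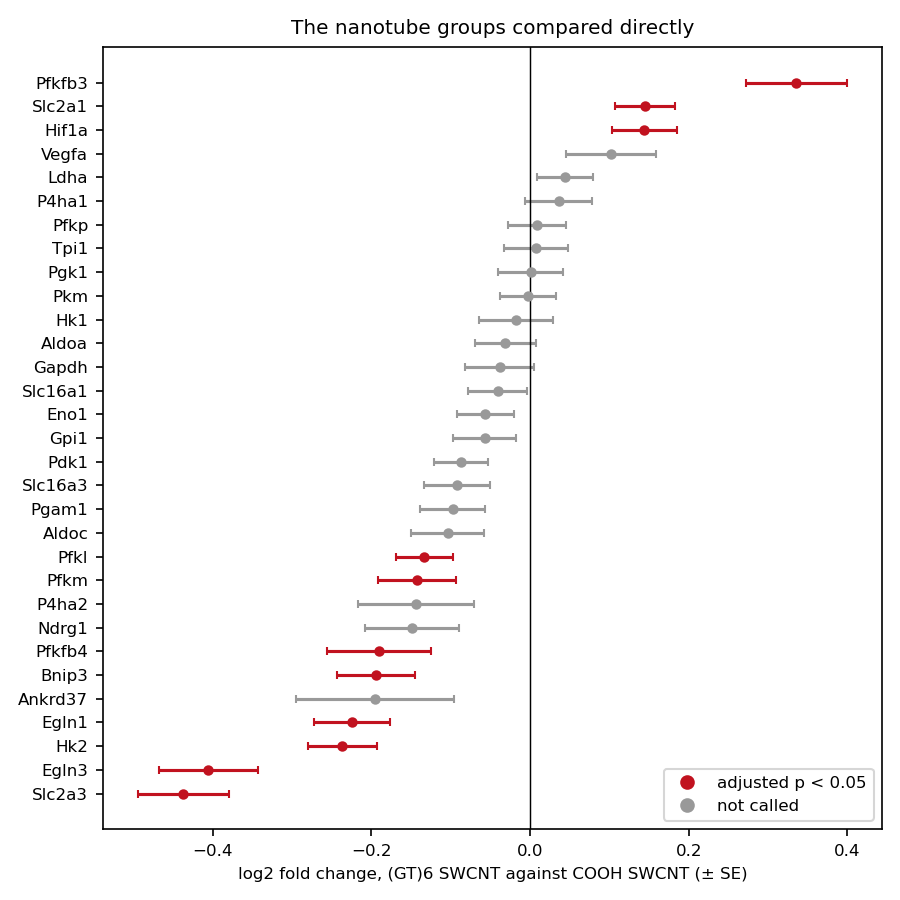
Log2 fold change of (GT)6 SWCNT against COOH SWCNT for the 31 tested genes (points) with SE (bars); red points have an edgeR adjusted p below 0.05. Pfkfb3 is highest at 0.34, and Slc2a3 and Egln3 are lowest at -0.44 and -0.41.

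Set directly against LPS, (GT)6 SWCNT had 5 members higher (16.1%) and 6 lower (19.4%), against 9.63% and 11.9% of all genes. COOH SWCNT had 12 higher (38.7%) and 2 lower (6.45%), against 18.1% and 19.7%. The (GT)6 SWCNT split was 9 and 3 with upper-quartile scaling, and the COOH SWCNT split was 10 and 7 with the length and GC trend removed. Vegfa was lower with both nanotubes than with LPS, (GT)6 SWCNT giving -0.24 ± 0.056 SE, edgeR adjusted p = 0.00126, and COOH SWCNT -0.34 ± 0.056 SE, edgeR adjusted p = 5.49e-06. Ldha was also lower than with LPS, at a log2 fold change of -0.16 with COOH SWCNT (edgeR adjusted p = 4.83e-04) and -0.11 with (GT)6 SWCNT (edgeR adjusted p = 0.0178, lost without (GT)6 SWCNT replicate 1, (GT)6 SWCNT replicate 3, LPS replicate 2 or LPS replicate 3, up to 0.124). Ndrg1 was higher than with LPS in both, by 0.33 and 0.47, and so were Hk1 (0.21 and 0.23) and Pfkp (0.21 and 0.20). Ankrd37 was higher than with LPS by 0.35 with (GT)6 SWCNT (edgeR adjusted p = 0.0146, kept in 3 of 6 refits) and by 0.55 with COOH SWCNT (edgeR adjusted p = 5.55e-05). COOH SWCNT exceeded LPS in Slc2a3 and Pfkfb4, by 0.45 and 0.34 on the log2 scale, and (GT)6 SWCNT stood below LPS in Egln3, at -0.34. Slc2a1 and Hif1a did not differ by the test between either nanotube and LPS: for Slc2a1 (GT)6 SWCNT gave 0.078 ± 0.038 SE, edgeR adjusted p = 0.154, and COOH SWCNT -0.067 ± 0.038 SE, edgeR adjusted p = 0.176. For Hif1a (GT)6 SWCNT gave 0.060 ± 0.041 SE, edgeR adjusted p = 0.345, and COOH SWCNT -0.084 ± 0.041 SE, edgeR adjusted p = 0.107. A p that misses the threshold does not show equal levels.

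Genes of the same pathways outside the set are given for context. Of 38 other genes of glycolysis, pyruvate and lactate, 24 were tested: 4 rose (16.7%) and 2 fell (8.33%) with LPS, 0 rose (0%) and 2 fell (8.33%) with (GT)6 SWCNT and 3 rose (12.5%) and 3 fell (12.5%) with COOH SWCNT, with medians of -0.0034, -0.022 and -0.017. Of all genes, 13.8% rose and 14.5% fell with LPS, 9.9% and 10.5% with (GT)6 SWCNT and 9.39% and 10.6% with COOH SWCNT. The list's shares lay near or below these. Where edgeR raised none with (GT)6 SWCNT, 0 were higher at an unadjusted p below 0.05 and 0 were called by DESeq2. In the remaining groups 2 fell with DiBASC2 (8.33%), 1 with Di-2-ANEPEQ (4.17%) and 1 with AAV (4.17%). Of all genes, 3.64%, 2.39% and 3.16% fell in these groups, and the last 2 list shares rested on 1 gene each. Slc2a6, a lysosomal hexose transporter, was highest with LPS, at 161 ± 5.99 CPM against 65.1 ± 2.40 in control (log2 fold change 1.30 ± 0.049 SE, edgeR adjusted p = 7.69e-23). It rose less with COOH SWCNT, to 79 ± 4.41 CPM (log2 fold change 0.28 ± 0.050 SE, edgeR adjusted p = 7.15e-05), where Hk3 also rose (log2 fold change 0.14 ± 0.038 SE, edgeR adjusted p = 0.0066). Eno2, the neuron-type enolase, rose with LPS (log2 fold change 0.66 ± 0.097 SE, edgeR adjusted p = 7.39e-07). Bpgm, which makes 2,3-bisphosphoglycerate, fell with LPS (log2 fold change -0.53 ± 0.11 SE, edgeR adjusted p = 2.33e-04), (GT)6 SWCNT (log2 fold change -0.40 ± 0.11 SE, edgeR adjusted p = 0.00606) and COOH SWCNT (log2 fold change -0.44 ± 0.11 SE, edgeR adjusted p = 0.00211). Pdp1, a pyruvate dehydrogenase phosphatase, fell with LPS (log2 fold change -0.79 ± 0.15 SE, edgeR adjusted p = 8.62e-05), in every refit, and with (GT)6 SWCNT (log2 fold change -0.47 ± 0.14 SE, edgeR adjusted p = 0.0164), a call kept in 2 of 6 refits. The mitochondrial pyruvate carrier subunit Mpc2 fell with COOH SWCNT (log2 fold change -0.32 ± 0.073 SE, edgeR adjusted p = 0.00158).

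All 9 listed pentose phosphate genes were tested, and edgeR raised none in these 3 treatments, with 0 at an unadjusted p below 0.05 and 0 by DESeq2 in each. With LPS 0 rose (0%) and 3 fell (33.3%), with (GT)6 SWCNT 0 rose (0%) and 1 fell (11.1%) and with COOH SWCNT 0 rose (0%) and 1 fell (11.1%). Falls over all genes were 14.5%, 10.5% and 10.6%, so the 2 nanotube shares lay near the background. H6pd, the endoplasmic reticulum hexose-6-phosphate dehydrogenase, fell with LPS (log2 fold change -0.32 ± 0.044 SE, edgeR adjusted p = 3.03e-07) and (GT)6 SWCNT (log2 fold change -0.32 ± 0.044 SE, edgeR adjusted p = 4.12e-07). G6pdx, the cytosolic entry enzyme, was called at a log2 fold change of -0.10 with LPS and Taldo1, transaldolase, at -0.10 with COOH SWCNT, each kept in 1 of 6 refits.

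Of 48 other HIF pathway and target genes, 40 were tested. With LPS 10 rose (25%) and 7 fell (17.5%), against 13.8% and 14.5% of all genes. With (GT)6 SWCNT 7 rose (17.5%) and 7 fell (17.5%), against 9.9% and 10.5%. With COOH SWCNT 8 rose (20%) and 3 fell (7.5%), against 9.39% and 10.6%. The list's medians were 0.055, -0.010 and 0.067. Nos2, inducible nitric oxide synthase, rose with LPS by more than any member of the set, from 1.72 ± 0.338 to 96.7 ± 12.1 CPM (log2 fold change 5.83 ± 0.16 SE, edgeR adjusted p = 2.89e-27). Bhlhe40, a transcriptional repressor, rose with (GT)6 SWCNT (log2 fold change 0.60 ± 0.053 SE, edgeR adjusted p = 1.34e-11) and COOH SWCNT (log2 fold change 0.46 ± 0.053 SE, edgeR adjusted p = 2.69e-08) but fell with LPS (log2 fold change -0.24 ± 0.055 SE, edgeR adjusted p = 5.86e-04). Its direct difference between (GT)6 SWCNT and LPS was 0.84 ± 0.053 SE, edgeR adjusted p = 9.60e-16.

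Bhlhe41, a related repressor, had the largest called fall of this list with LPS and with (GT)6 SWCNT. It dropped with LPS from 51.7 ± 3.74 to 11.3 ± 1.06 CPM (log2 fold change -2.18 ± 0.064 SE, edgeR adjusted p = 2.60e-26), with (GT)6 SWCNT (log2 fold change -0.71 ± 0.054 SE, edgeR adjusted p = 3.58e-13) and with COOH SWCNT (log2 fold change -0.24 ± 0.052 SE, edgeR adjusted p = 6.13e-04). It rose with DiBASC2 (log2 fold change 0.31 ± 0.050 SE, edgeR adjusted p = 7.98e-05) and with AAV by 0.19 on the log2 scale, the latter in 2 of 6 refits. Zfp36l2, an RNA-decay factor, fell with LPS (log2 fold change -0.85 ± 0.055 SE, edgeR adjusted p = 1.45e-15) and (GT)6 SWCNT (log2 fold change -0.54 ± 0.054 SE, edgeR adjusted p = 4.03e-10). It was called at -0.15 with COOH SWCNT and at 0.21 with AAV, in 2 and 4 of 6 refits. Ddit4, an inhibitor of mTORC1 signalling, fell with LPS (log2 fold change -0.60 ± 0.12 SE, edgeR adjusted p = 2.31e-04) and (GT)6 SWCNT (log2 fold change -0.58 ± 0.12 SE, edgeR adjusted p = 5.07e-04). It was called higher with Fura-2 at 0.48 and with DiBASC2 at 0.40, in 0 and 3 of 6 refits. Fam162a, a mitochondrial hypoxia-induced gene, had the largest called fall with COOH SWCNT (log2 fold change -0.31 ± 0.057 SE, edgeR adjusted p = 1.17e-04).

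The other treatments were counted over the same 40 genes. With Fura-2 1 rose (2.5%) and 0 fell (0%), against 0.0381% and 0.213% of all genes. With DiBASC2 3 rose (7.5%) and 3 fell (7.5%), against 1.82% and 3.64%. With Di-2-ANEPEQ 2 rose (5%) and 0 fell (0%), against 0.686% and 2.39%. With AAV 9 rose (22.5%) and 0 fell (0%), against 1.84% and 3.16%. Of the 9 AAV calls, 2 (Pgm1 and Ero1l) stood in every refit. Where edgeR lowered none, the counts at an unadjusted p below 0.05 were 0 with Fura-2, 1 with Di-2-ANEPEQ and 2 with AAV, and DESeq2 called 0 in each.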

How the data were processed

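The deposited values are whole-number read counts per Ensembl gene for 24 libraries. STAR 2.5.4b and GRCm38.p6 are named in the submitters' processing notes, and the counting program and its use of strand were not given in the sources used here. Names came from GENCODE M21: 53947 of 54838 identifiers matched with their version, 54809 without it and 29 not at all. Aldoa has 2 identifiers, and the one with 1411269 counts was used.

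Tests used edgeR 4.0.16 under R 4.3.3: filterByExpr (minimum count 10), TMM scaling and 1 quasi-likelihood fit over the 8 groups, with 10 contrasts and Benjamini-Hochberg adjustment over 13116 genes. A call is an adjusted p below 0.05. CPM use TMM library sizes. Levels between genes are per kb of merged exons. SD and SE describe the spread between libraries. The test was also run on simulated counts that had the same spread for every gene, unlike real libraries. That run does not bear on whether the calls here are right. Members and lists were chosen with earlier results of these data known.

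Every library's values are given for Hif1a, Hk2, Pfkfb3, Slc2a1, Ldha, Gapdh, Vegfa and Egln3 and for members called against control with a log2 change of at least 0.5 and no overlap, which added Ankrd37. From each other list the 2 highest and 2 lowest called genes with a mean of at least 5 CPM are named for LPS and both nanotubes. 1 gene that this rule names is not reported here. Replicate pairs differed beyond counting noise (chi-square per degree of freedom 2.52 to 20.5), so each library counts once. Alternatives were DESeq2 1.42.0 (size factors, Wald test), upper-quartile scaling, no filter, a mean of at least 50 counts, a replicate block, fits of 2 groups, each library left out and, chosen after seeing the data, removal of a length and GC trend.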

Additional observations from a re-analysis of the deposited data

How the results depend on the processing

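Of 87 calls of members over the 10 comparisons, 86 were kept with DESeq2 size factors, 82 with upper-quartile factors, 80 without the low-count filter, 87 with a mean of at least 50 counts, 84 with the DESeq2 Wald test, 81 in fits of only the 2 groups and 68 with the length and GC trend removed. Counts of called members moved for Di-2-ANEPEQ (7) to 4 with the length and GC trend removed and to 12 in the 2-group fit, and for AAV (6) to 10 with the DESeq2 Wald test and to 10 with that trend removed; the cause was not tested. Calls absent from the 87 were also gained. They numbered 28 with the length and GC trend removed and 22 with upper-quartile factors. The DESeq2 Wald test added 13, fits of only the 2 groups 8 and the 50-count minimum 7. Dropping the filter added 5 and DESeq2 size factors 4. Pfkl in COOH SWCNT against LPS, 0.011 and not called, was called at -0.105 with the trend removed. With upper-quartile factors the split of higher and lower members became 6 and 8 in LPS (7 and 6), 5 and 5 in (GT)6 SWCNT (5 and 3), 2 and 3 in DiBASC2 (1 and 3) and 9 and 3 for (GT)6 SWCNT against LPS (5 and 6). With the trend removed it became 10 and 7 for COOH SWCNT against LPS (12 and 2), 8 and 3 in (GT)6 SWCNT and 1 and 5 in DiBASC2.

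With 1 library left out, called members numbered 10 to 12 in LPS, 6 to 9 in (GT)6 SWCNT, 8 to 13 in COOH SWCNT, 0 to 1 in Fura-2, 3 to 4 in DiBASC2, 0 to 3 in Di-2-ANEPEQ, 0 to 7 in AAV, 8 to 11 for (GT)6 SWCNT against COOH SWCNT, 7 to 12 for (GT)6 SWCNT against LPS (7 without (GT)6 SWCNT replicate 1) and 11 to 15 for COOH SWCNT against LPS. 

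Same-numbered libraries did not deviate together (mean correlation -0.0027 over 84 pairs, and 5 of 24 libraries correlated best with their own number). With 3 libraries a group this cannot show what the replicate number stands for. A replicate block kept all 87 calls and added 3. Adm, with 7 reads in all, did not pass the low-count filter.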

Other observations

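The receptors for the product of Vegfa, picked out here after their values were seen, also changed. Kdr, which encodes VEGFR2, measured 131 ± 5.49 CPM (SD, n = 3) in control, 94.7 ± 6.04 with LPS, 104 ± 3.44 with (GT)6 SWCNT and 129.7 ± 6.42 with COOH SWCNT. It fell with LPS (log2 fold change -0.47 ± 0.054 SE, edgeR adjusted p = 6.10e-09) and with (GT)6 SWCNT (log2 fold change -0.33 ± 0.054 SE, edgeR adjusted p = 9.97e-06), and both calls held in each of 6 refits that left out 1 library. Flt1, which encodes VEGFR1, measured 176 ± 5.49 CPM in control, 183 ± 9.81 with LPS, 229 ± 12.3 with (GT)6 SWCNT and 208 ± 5.89 with COOH SWCNT. It rose with (GT)6 SWCNT (log2 fold change 0.38 ± 0.043 SE, edgeR adjusted p = 8.07e-09) and with COOH SWCNT (log2 fold change 0.24 ± 0.043 SE, edgeR adjusted p = 6.92e-05), again in every refit, and with AAV (log2 fold change 0.16 ± 0.043 SE, edgeR adjusted p = 0.0254), in 2 of 6 refits, and was not called with LPS. Set directly against LPS, Flt1 was higher with (GT)6 SWCNT (log2 fold change 0.32 ± 0.043 SE, edgeR adjusted p = 2.07e-07) and with COOH SWCNT (log2 fold change 0.18 ± 0.043 SE, edgeR adjusted p = 8.34e-04).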
